A study of Mus musculus with 3 samples.

Results

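*Pecam1*, *Icam1*, *Vcam1*, *Sele*, and *Selp* encode the adhesion molecules by which the endothelium of a blood vessel holds its own cells together and catches leukocytes from the blood. These 5 genes were taken by name from the 84 extracellular matrix (ECM) genes whose mm9 positions the study lists, and H3K27ac peaks were followed around each of them in mouse tibialis anterior (TA) muscle. The mark, H3K27ac, is an acetyl group on a lysine of histone H3 that sits at active enhancers and promoters. The data are 3 ChIP-seq libraries made with an H3K27ac antibody (Abcam ab4729) from TA muscle of C57/BL6 mice aged 2, 10, and 20 months (1 library per age), for which neither a mutation nor a treatment is given and, for the middle age, the methods give a somewhat wider range. The number of animals behind a library was not stated in the sources read. The TA lies at the front of the shin, and its chromatin comes from myofibers, endothelial cells, leukocytes, fibroblasts, and satellite cells together. The extraction protocol in the labels speaks of activated satellite cells instead, so the tissue rests on the tissue label and the methods. No defining marker of muscle fibers, and none of endothelium beyond the members themselves, is among the 84 genes, so neither the tissue nor the cell type could be checked against one. In such a mixture, a larger number of endothelial cells and more H3K27ac per endothelial cell cannot be told apart.

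Peaks were given to whichever of the 84 genes had the closest TSS if the peak edge lay within 100 kb of it, and were called promoter peaks within 2.5 kb and distal peaks beyond. By this rule 15 of the 17884 peaks of the 2-month list, 21 of the 35221 of the 10-month list, and 29 of the 44752 of the 20-month list fell to the 5 genes. The libraries held 15933343, 18888715, and 26302098 uniquely mapped reads in the same order. The number of reads at each peak's summit was solved from the deposited fold and p-value, and is given as multiples of the genome-wide mean of that library, which was 1.26, 2.24, and 2.5 reads at 2, 10, and 20 months. The local background against which peaks were called sat at that mean for 78.3% of the peaks at 2 months, but for 2.87% at 10 months and 4.89% at 20 months, so the lists were not called on the same terms. Each age has 1 library, so no replicate spread exists for any difference between ages. Intervals are exact 95% intervals that cover counting error only, and no p-value is given.

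Leukocytes leave the blood in steps. Selectins on the vessel wall make them roll, immunoglobulin-type molecules bind their integrins and stop them, and junction molecules guide them through. P-selectin, from *Selp*, is kept in granules of endothelial cells and platelets and is shown within minutes, while E-selectin, from *Sele*, has to be made anew after an inflammatory signal. ICAM-1, from *Icam1*, binds the leukocyte integrins that contain the *Itgb2* chain, and VCAM-1, from *Vcam1*, binds those with the *Itga4* chain and in muscle is also carried by satellite cells. PECAM-1, from *Pecam1*, joins neighbouring endothelial cells by binding to itself and is found on them without any stimulus.

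*Sele* and *Selp*, the selectin genes among the 5, were nearly free of H3K27ac peaks. *Sele* (mm9 chromosome 1, 165978365 to 165987808, + strand) had no promoter peak at any age, and the only peaks assigned to it lay 52.7 to 53.5 kb upstream. *Selp* (chromosome 1, 166045395 to 166080157, + strand) had no peak of either class at any age, and its nearest peak at 2, 10, and 20 months was 120, 109, and 120 kb away. The stretch without a peak that covers *Sele* and *Selp* measured 312 kb in the 2-month list, 229 kb in the 10-month list, and 253 kb in the 20-month list. Gaps of at least that length made up 9.32%, 5.39%, and 3.76% of the gaps between neighbouring peaks in the 3 lists. They nevertheless held 75.2%, 62.5%, and 57.2% of all gap length, so most of the length between peaks lay in stretches at least as long. Altogether 13 of the 84 ECM genes (15.5%), *Selp* included, had no peak assigned at any age.

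The promoters of *Sele*, *Selp*, and *Icam1* are shown because none of them held a peak at any age. The RefSeq promoter table used here (build GRCm38.p6, not the mm9 of the peaks) matched these 3 genes by symbol, and *Pecam1* and *Vcam1* were not matched. Each line gives the 250 bases before the start on the + strand, 5′ to 3′, at chr1:164047984-164048233 for *Sele*, chr1:164115014-164115263 for *Selp*, and chr9:21015690-21015939 for *Icam1*. Capitals mark matches to TATAAA, the core of the TATA box, or to TGANTCA. The latter is wider than the AP-1 site it includes, which has C or G at N. Both were searched on both strands together with GATAAG and the NF-kB consensus, written as GGGRNNYYCC (R is A or G, Y is C or T, N is any base).
Sele: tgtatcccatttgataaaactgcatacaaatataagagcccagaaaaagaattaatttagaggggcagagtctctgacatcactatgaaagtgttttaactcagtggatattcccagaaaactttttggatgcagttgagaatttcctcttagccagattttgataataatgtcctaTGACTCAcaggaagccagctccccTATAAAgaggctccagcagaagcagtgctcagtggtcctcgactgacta
Selp: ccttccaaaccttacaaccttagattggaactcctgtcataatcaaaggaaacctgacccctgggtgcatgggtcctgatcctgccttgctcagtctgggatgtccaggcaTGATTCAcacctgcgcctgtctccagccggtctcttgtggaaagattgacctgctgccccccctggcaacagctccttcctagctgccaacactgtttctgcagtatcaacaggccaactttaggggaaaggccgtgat
Icam1: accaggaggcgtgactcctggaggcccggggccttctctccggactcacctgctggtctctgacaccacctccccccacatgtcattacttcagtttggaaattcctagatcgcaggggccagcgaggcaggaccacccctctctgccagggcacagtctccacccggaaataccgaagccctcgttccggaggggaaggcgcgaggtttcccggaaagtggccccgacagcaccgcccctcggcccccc
*Sele* carried TATAAA from 49 to 44 bases before the start and TGACTCA from 73 to 67 bases before it. *Selp* carried TGATTCA, with T at N and so not the AP-1 site itself, from 139 to 133 bases before its start. No exact match to GATAAG or to the NF-kB letters was found in the 3 windows, and *Icam1* had none of the 4 motifs. Sequences 1 letter away from the NF-kB letters, such as tggaaattcc in *Icam1* and tggatattcc in *Sele*, were not counted. Among the 32851 promoters of the table, TATAAA was present in 12.4%, TGANTCA in 6.75%, GATAAG in 6.55%, and the NF-kB consensus in 7.25%. The promoters also differed in CG dinucleotides, of which *Sele* held 1, *Selp* 3, and *Icam1* 15, against a median of 6 over all promoters (quartiles 2 and 16). A match of letters is no site in use, and a missing match says nothing of the factor.

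The upstream region of *Sele* (chromosome 1, 165924925 to 165925631) was the only one of the selectin genes with a peak at every age. Its summits at 2, 10, and 20 months held 13, 57, and 58 reads, or 10.3, 25.4, and 23.2 times the genome mean. Both later ages lay above 2 months and near each other. The ratio to 2 months was 2.47 (1.33 to 4.91) at 10 months and 2.25 (1.22 to 4.47) at 20 months, and the ratio of 20 over 10 months was 0.911 (0.621 to 1.34). The first of these exceeded that of 74.98% of all regions with a peak at every age, and the second that of 59.8%, so the ratios at *Sele* were within the usual range. A second, smaller *Sele* peak 53.5 kb upstream appeared at 20 months alone with 21 reads, or 8.39 times the mean. By name and order in RefSeq, *Mettl18*, *BC055324*, and *Scyl3* neighbour *Sele* on that side, and which gene the region serves was not tested.

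**Figure D1:**
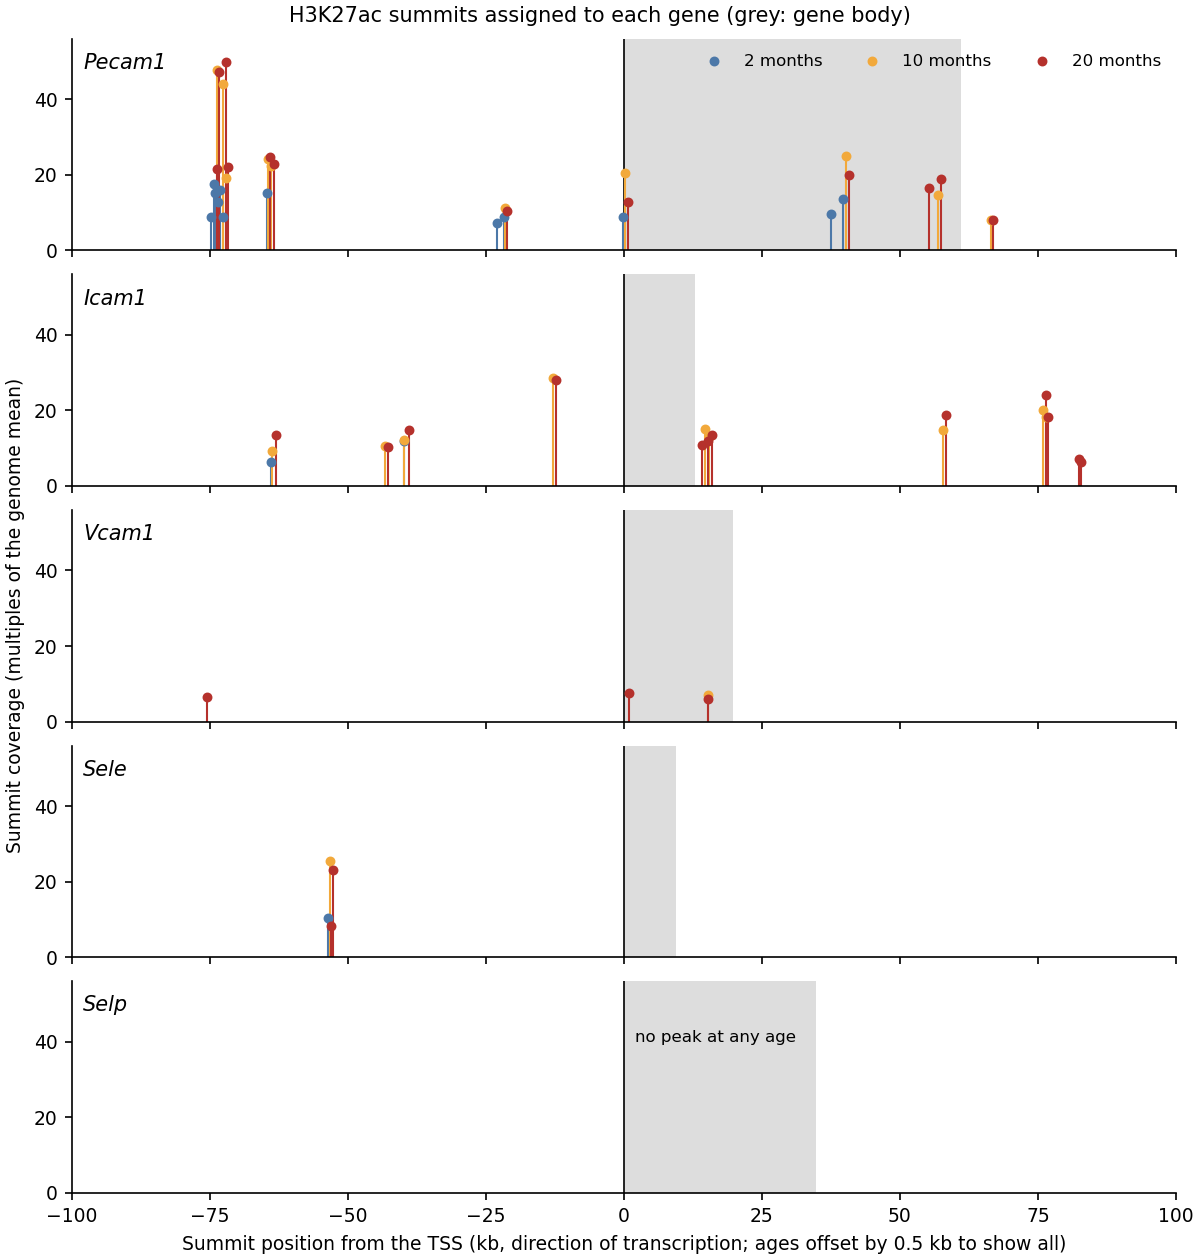
Summits of all H3K27ac peaks assigned to each of the 5 genes, by distance from the TSS in kb along the direction of transcription (x axis) and by summit coverage in multiples of the genome mean (y axis), with 1 library each at 2, 10, and 20 months (colors, offset by 0.5 kb). Grey bands are gene bodies. The highest summits, up to 49.9 times the mean, lie more than 60 kb upstream of *Pecam1*, *Icam1* has none at its TSS, and *Selp* has no peak.

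*Icam1* (chromosome 9, 20820384 to 20833258, + strand) gained the most peaks of the 5 genes. It had 2, 9, and 12 distal peaks at 2, 10, and 20 months, and its promoter had 0 at each age. The gain of 10 between 2 and 20 months ranked 4th among the 84 ECM genes, level with 1 other gene. More distal peaks at 20 than at 2 months were found at 3 of the 5 genes, *Icam1*, *Vcam1*, and *Sele*, beside 67.9% of the 84, and fewer at none, beside 2.38%. Nor was an empty promoter unusual. Distal peaks with an empty promoter at all ages were found at 19 of the 84 genes (22.6%), and of the 12 genes with at least 12 distal peaks at 20 months, 5 had no promoter peak.

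At 2 months both *Icam1* peaks lay upstream. At 10 months 4 lay upstream and 5 past the end of the gene, and at 20 months 4 and 8. None lay in the gene body. By RefSeq order, *Mrpl4*, a gene of the mitochondrial ribosome, *S1pr2*, a sphingosine phosphate receptor, and *Dnmt1*, the maintenance DNA methyltransferase, neighbour *Icam1* upstream. *Icam4* and *Icam5*, further members of the ICAM family, and then *Zglp1*, *Fdx2*, *Raver1*, *Tyk2*, and *Cdc37* follow it downstream, and none of these is among the 84 genes. Which gene each peak belongs to was not tested.

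The strongest *Icam1* region lay 12.4 kb upstream (chromosome 9, 20806818 to 20808017). It had 64 summit reads at 10 months and 70 at 20 months, or 28.5 and 28.0 times the genome mean, and no peak at 2 months. It was the nearest peak to the *Icam1* TSS at both later ages. Among the 17833 regions in the genome with a peak at 10 and 20 months but not at 2 months, 97.3% were lower at each of these ages. Of the 3422 regions at least as high at 10 months, 14.7% had no 2-month peak. Were the background at the genome mean, as for both *Icam1* peaks of the 2-month list, a 2-month summit of 8 reads, or 6.34 times the mean, could have been called. The ratio of 20 over 10 months was 0.980 (0.688 to 1.40).

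The other *Icam1* regions gained by 10 months and kept were lower. A pair 75.5 and 76.2 kb downstream of the TSS reached 20.1 and 18.3 times the mean at 10 months and 24.0 and 18.4 times at 20 months. A region at 57.0 kb downstream stood at 14.7 and 18.8 times at these ages. Close behind the gene end, 14.6 and 15.2 kb from the TSS, values were 15.2 and 12.9 times at 10 months and 12.0 and 13.6 times at 20 months. A region 43.0 kb upstream had 10.7 and 10.4 times the mean. For all 7 regions gained at *Icam1* and kept, the interval of the 20 over 10 month ratio included 1, so no change from 10 to 20 months could be detected with these reads. The *Icam1* peaks found at 20 months alone lay 13.4, 81.8, and 82.3 kb downstream, with 27, 18, and 16 reads.

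The 2 *Icam1* regions with a peak at every age were lower at 10 and 20 months than the region 12.4 kb upstream. The region 39.2 kb upstream held 15, 27, and 37 reads at 2, 10, and 20 months, or 11.9, 12.0, and 14.8 times the mean. Its ratio to 2 months was 1.01 (0.520 to 2.05) at 10 months and 1.24 (0.666 to 2.44) at 20 months, and 6.85% and 10.1% of all shared regions had a lower ratio. The 10-month summit there lay 442 bp from the 2-month summit, so the ages were not read at the same point. The region 63.0 kb upstream held 8, 21, and 34 reads, or 6.34, 9.36, and 13.6 times, with ratios of 1.48 (0.628 to 3.85) and 2.14 (0.973 to 5.35). On this scale no rise was detectable at either region with these reads. In RPM, where reads are scaled to the uniquely mapped reads of a library instead, the 20 over 2 month ratio of the region 63.0 kb upstream was 2.58 (1.17 to 6.44), and its interval no longer included 1. RPM leaves out the length each read covers, with which the genome mean grows. That length differed between the libraries, whose narrowest peaks were 148, 222, and 178 bp wide at 2, 10, and 20 months. Ratios to 2 months are therefore higher in RPM.

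*Vcam1* (chromosome 3, 115812938 to 115832606, − strand) had few and weak peaks. It had none at 2 months, when the nearest peak was 122 kb away. At 10 months it had 1 distal peak in the gene body, 15.1 kb from the TSS, with 16 reads or 7.14 times the mean. At 20 months it had 3 peaks, namely a promoter peak 0.197 kb inside the gene with 19 reads (7.59 times), 1 in the gene body with 15 reads (5.99 times), and 1 at 76.0 kb upstream with 16 reads (6.39 times). The gene body peaks of 10 and 20 months did not overlap, being 312 bp apart. Median summits were 15.6 and 14 times the mean in the 10- and 20-month lists, so each of the 4 *Vcam1* peaks was in the lower part of its list.

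*Vcam1* was one of 11 of the 84 genes with a promoter peak at 20 months alone. Genes with a promoter peak numbered 1 of the 5 at 2 months, 1 at 10 months, and 2 at 20 months, beside 26.2%, 34.5%, and 50% of all 84 genes. At 2 months, a *Vcam1* summit would have needed at least 8 reads, or 6.34 times the mean, to be called. The *Vcam1* summits of the later ages, at 5.99 to 7.59 times, lay around that limit, and only the one at 5.99 times was below it. All were so near it that a missing peak at 2 months cannot be read as a later gain. At 10 months the limit at the genome mean was 10 reads, or 4.46 times, which is below the 7.59 times found at the promoter at 20 months.

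*Pecam1* (chromosome 11, 106515527 to 106576595, − strand) carried H3K27ac at every age. It was assigned the highest summits of the 5 genes, which lay more than 60 kb upstream. Its promoter peak was found at each age within 0.194 kb of the TSS and inside the gene, with summits 400, 240, and 323 bp downstream of the TSS at 2, 10, and 20 months. A promoter peak at every age was found at 20 of the 84 genes (23.8%), and *Pecam1* was the only one of the 5 among them. The promoter held 11, 46, and 32 reads, or 8.72, 20.5, and 12.8 times the mean, being highest at 10 months. Its ratio to 2 months was 2.35 (1.20 to 5.04) at 10 months and 1.47 (0.720 to 3.22) at 20 months. The ratio of 20 over 10 months was 0.623 (0.384 to 0.9998), and 0.4996 (0.308 to 0.802) in RPM. Of all shared regions, 0.236% had a lower ratio between these ages, and the interval lay below 1 at 0.557% of them and above 1 at 3.35%. It was the only 1 of 9 shared regions of the 5 genes whose interval lay below 1, by a narrow margin, and no replicate bears on it. In RPM the interval lay below 1 at 2 of the 9, the promoter and the *Pecam1* region 39.5 kb into the gene, beside 9.89% of all shared regions.

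The distal peaks of *Pecam1* at 2, 10, and 20 months numbered 11, 9, and 11, while the length they and the promoter peak covered was 3142, 5022, and 5159 bp. Their median width was 243, 463.5, and 465 bp, so the peaks of the later ages were wider. Peaks were wider at the later ages in the whole lists as well. There the mean width was 337, 493, and 435 bp, and the narrowest peak 148, 222, and 178 bp. Their number depended on the setting, being 6, 8, and 10 for summits of at least 10 times the mean and 11, 5, and 5 at equal list length by q. More than 60 kb upstream lay 7, 5, and 6 of the distal peaks. In RefSeq order the neighbours on that side are *Milr1*, an immunoglobulin receptor of mast cells, *Polg2*, a subunit of the mitochondrial DNA polymerase, *Ddx5*, an RNA helicase, and *Cep95*, and on the other side *Tex2*, *Ern1*, and *Icam2*, another endothelial ICAM. None of these genes is among the 84, so a TSS nearer to these peaks was not considered, and which gene the peaks serve was not tested. With an outer limit of 50 kb, *Pecam1* kept 4, 2, and 2 distal peaks. Within that limit its highest summits at 2, 10, and 20 months were 13.5, 24.97, and 19.97 times the mean. Those of *Icam1* were 11.9, 28.5, and 28.0 times, so *Pecam1* was no longer the higher at 10 and 20 months.

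The strongest 2 of these upstream regions lay 72.4 and 73.4 kb from the *Pecam1* TSS (chromosome 11, 106649003 to 106649774 and 106649954 to 106650541). At 72.4 kb, the highest summits at 2, 10, and 20 months held 20, 99, and 125 reads, or 15.9, 44.15, and 49.9 times the mean. At 73.4 kb, they held 22, 107, and 118 reads, or 17.45, 47.7, and 47.1 times. Each was made of 2 peaks at 2 months and of 1 at both later ages. The ratios to 2 months were 2.78 (1.71 to 4.75) and 3.15 (1.95 to 5.33) at the region 72.4 kb upstream, and 2.74 (1.72 to 4.55) and 2.70 (1.70 to 4.47) at that 73.4 kb upstream, for 10 and 20 months in turn. These intervals lay above 1, and 86.0% and 92.2% of all shared regions had a lower ratio than the region at 72.4 kb. The ratios leave out the local background. At 2, 10, and 20 months it was 1.37, 18.5, and 20.0 reads at 72.4 kb, and 1.35, 18.6, and 19.9 reads at 73.4 kb.

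Nearer to the gene, *Pecam1* regions were lower. The region 39.5 kb into the gene held 17, 56, and 50 reads, or 13.5, 24.97, and 19.97 times, with ratios of 1.85 (1.06 to 3.40) at 10 months and 1.48 (0.840 to 2.74) at 20 months. About 21 kb upstream, weak peaks came and went, with 11 and 9 reads in the 2-month library, 25 in the 10-month library, and 26 in the 20-month library. The 10- and 20-month peaks there were 14 bp apart and so counted as different regions. Gene body regions 54.6 and 56.8 kb from the TSS had no peak at 2 months. The one at 56.8 kb stood at 14.7 times at 10 months and 18.8 times at 20 months, and the one at 54.6 kb at 16.4 times at 20 months alone. Just outside the limit, 102 kb from the *Pecam1* TSS, a further peak held 11, 44, and 55 reads.

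**Figure D2:**
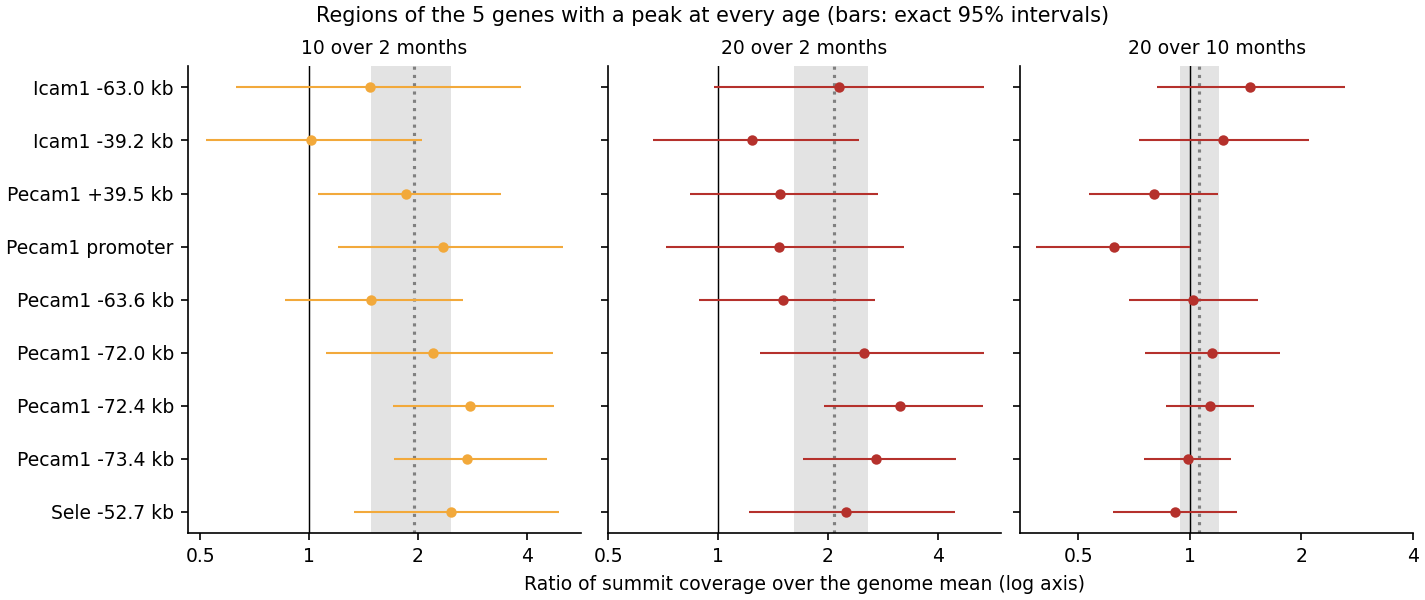
Between-age ratio of summit coverage, each in multiples of its genome mean (x axis, log scale) at the 9 regions of *Icam1*, *Pecam1*, and *Sele* with a peak at every age (y axis, distance from the TSS, minus for upstream), with exact 95% intervals for counting error. The dotted line and grey band are the median and quartiles of all shared regions. The 10 over 2 month ratios run from 1.01 to 2.78 around a median of 1.95, and the *Pecam1* promoter is the lowest for 20 over 10 months, at 0.623.

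At the 8 distal regions of the 5 genes with a peak at every age, 5 at *Pecam1*, 2 at *Icam1*, and 1 at *Sele*, the median ratio was 2.03 for 10 over 2 months and 2.19 for 20 over 2 months. All 8 were above 1 in both comparisons on this scale, which leaves out the local background. Over all 10596 shared regions of the genome with recovered reads, the medians were 1.95 and 2.08, with 93.5% and 95.8% of regions above 1. Over the genome mean, the rise at the 5 genes was thus of the size seen in the whole lists. From 2 months to each later age, local background grew by a larger factor than the summit at every shared *Pecam1* region. The same was true of *Icam1* 39.2 kb upstream, so relative to local background these summits fell. At *Sele*, where it was 1.26, 3.51, and 3.83 reads, and at *Icam1* 63.0 kb upstream, they did not fall. Counting the promoter of *Pecam1* as a 9th region, the interval lay above 1 at 6 for 10 over 2 months and at 4 for 20 over 2 months. The same held for 58.1% and 65.8% of all shared regions. In RPM it lay above 1 at 7 of the 9 in both comparisons, beside 85.6% and 80% of all shared regions. It lay below 1 at none of the 9 in either comparison, and at 0.642% and 0.623% of all shared regions. For 20 over 10 months the median of the 8 was 1.08, and 0.863 in RPM. It was 1.06, and 0.851 in RPM, over all shared regions, so the order of the later ages turned with the scale in the whole lists as well.

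Merged over the ages, the peaks of the 5 genes formed 33 regions. A peak at every age was found at 9 of them, beside 20.1% of the 52693 regions of the genome. Another 10, 7 at *Icam1* and 3 at *Pecam1*, had one at 10 and 20 months but not at 2 months, beside 33.8% of all regions. A peak at 20 months alone was found at 9, of which *Icam1* and *Vcam1* had 3 each, *Pecam1* 2, and *Sele* 1, beside 24.6%. A peak at 2 months alone was found at 2, both of *Pecam1*, beside 8.13%. Only *Icam1* had most of its regions, 7 of 12, in the class gained by 10 months and kept, whereas *Pecam1* had 6 of 15 present at every age.

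Whether a missing peak is a missing mark depends on the height needed for a call, which was computed from the smallest deposited p-value of each list and the background of the nearest peak within 10 kb, or the genome mean where there was none. A call also needs a minimum width, so these heights are the least that could be called under that background. The background at the place itself may have been lower than at the nearest peak. Of the 20 regions without a peak at 2 months, 1, at *Vcam1*, had its only summit, at 20 months, below the height needed. This carries the later multiple over unchanged. Shared regions of the genome had median ratios to 2 months of 1.95 at 10 months and 2.08 at 20 months. The count therefore does not show that the other regions lacked the mark at 2 months. For the 20 regions that height was at most 7.14 times the mean. At 10 months 4 of 12 missing regions, and at 20 months 2 of 4, had no summit at another age that reached the height needed. This holds only under the background borrowed from the nearest peak. At the genome mean, the height needed was 4.46 times at 10 months and 3.99 times at 20 months, which the highest summits of these regions exceeded. Both *Pecam1* regions with a peak at 2 months alone fell short only under the borrowed background. The one 37.9 kb into the gene had 12 reads at 2 months, or 9.52 times the mean. At that place a call needed 13.8 times the mean at 10 months and 12.4 times at 20 months, given the local background of 14.3 and 14.7 reads at the nearest peak. At the region 22.3 kb upstream, 7.14 times was found at 2 months, and 8.92 and 7.99 times would have been needed later. The absence of these peaks at 10 and 20 months does not show a loss of H3K27ac at *Pecam1*.

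**Figure D3:**
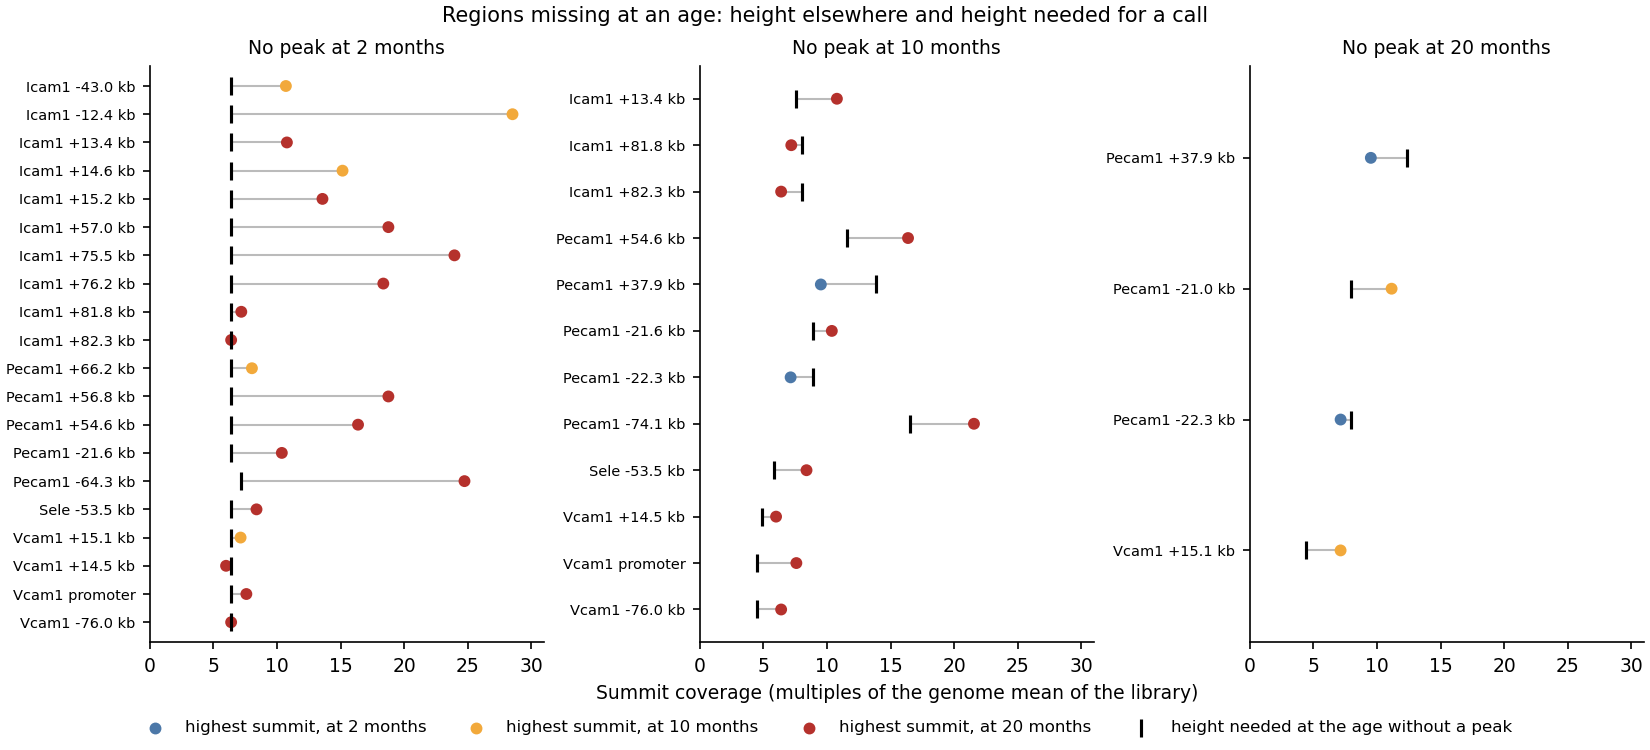
Regions of the 5 genes (y axis, distance from the TSS, minus for upstream) that lacked a peak at 2, 10, or 20 months (panels), with the highest summit found there at another age (points, colored by that age) and the height a call needed at the age without a peak (ticks), in multiples of the genome mean of the library (x axis). Ticks use the background of the nearest peak within 10 kb, or else the genome mean. At 2 months most points lie above the ticks, up to 28.5 against 6.34 at *Icam1* 12.4 kb upstream. The *Vcam1* points and some of *Icam1*, *Pecam1*, and *Sele* lie closer to them.

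As a group, the 5 genes had 14, 20, and 27 distal peaks at 2, 10, and 20 months, or 1.93-fold as many at 20 as at 2 months. The other 79 ECM genes had 180, 328, and 431, a 2.39-fold gain, and the whole list grew 2.5-fold. As a share of all peaks, the distal peaks of the 5 genes made up 0.0783% (0.0428% to 0.131%) of the 2-month list, 0.0568% (0.0347% to 0.0877%) of the 10-month list, and 0.0603% (0.0398% to 0.0878%) of the 20-month list. These intervals treat peaks as independent, although many lay in clusters at few loci. Their overlap therefore does not decide whether the share differed between ages. At least 1 distal peak was found at 3 of the 5 genes at 2 months and at 4 at each later age, beside 48.8%, 67.9%, and 75% of all 84 genes. With each list cut to the 17884 peaks with the smallest q, the 5 genes had 14, 12, and 12 distal peaks, so the gain was absent at equal list length, with 2, 6, and 6 at *Icam1* and 11, 5, and 5 at *Pecam1*. Counting summits of at least 10 times the mean, the 5 genes had 8, 17, and 21 instead, and 6, 18, and 19 at 1 RPM or more. Of the 13 peaks added in the full lists, *Icam1* had 10, *Vcam1* 2, and *Sele* 1, while *Pecam1* and *Selp* had as many there at 20 as at 2 months.

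Receptors that work with the 5 genes on leukocytes, platelets, or endothelium were read from 9 partner genes of the ECM sheet. *Itgal* and *Itgb2*, whose products form LFA-1, the leukocyte receptor of ICAM-1, were assigned many distal peaks. These numbered 16, 20, and 23 at *Itgal* and 10, 16, and 18 at *Itgb2* at 2, 10, and 20 months. The nearest lay 21701 bp from the *Itgal* TSS and 13423 bp from that of *Itgb2*, both at 10 months. TSSs outside the 84 genes were not considered, and which gene the peaks of any partner serve was not tested. *Itgam* had 4, 5, and 4, and *Itgax* 0, 1, and 1. Together these 4 leukocyte genes had 30, 42, and 46 distal peaks, 1.53-fold as many at 20 as at 2 months, and 1 promoter peak, at *Itgax* at 20 months. The 84 genes together had 2.36-fold as many, and as a share of the list the leukocyte genes held 0.168%, 0.119%, and 0.103%. Their part in the *Icam1* result was not tested. *Itga4*, a chain of the VCAM-1 receptor, had no distal peak at any age and a promoter peak at 10 and 20 months, and *Itgb1*, its partner chain, had 1, 3, and 5 distal peaks. *Itgb3* had 1, 4, and 4, *Itgav* 1, 2, and 2, and *Cd44*, the hyaluronan receptor, which can also carry selectin ligands, 1, 2, and 3. Over all 9 genes the distal peaks numbered 34, 53, and 60, or 1.76-fold as many at 20 as at 2 months. More at 20 than at 2 months were found at 7 of the 9, beside 67.9% of the 84. A promoter peak was found at 3, 5, and 6 of the 9, beside 26.2%, 34.5%, and 50%.

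**Figure D4:**
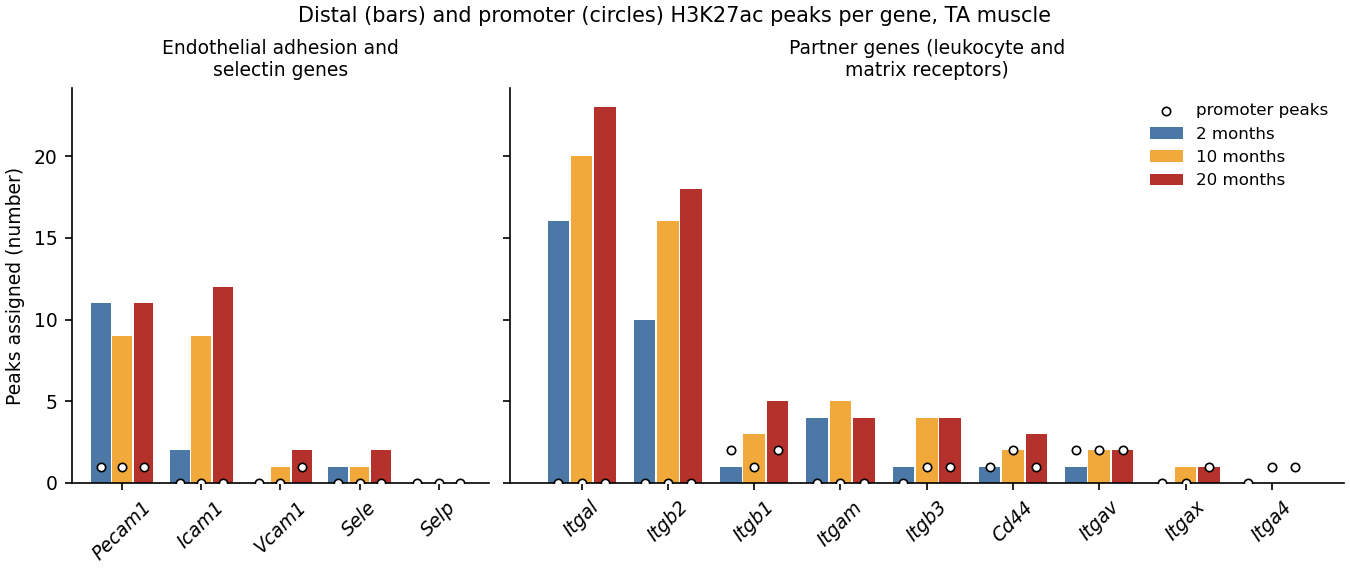
Number of distal peaks (bars) and promoter peaks (circles) assigned to each of the 5 genes (left) and the 9 partner genes (right) at 2, 10, and 20 months, 1 library per age, on the y axis. *Icam1* goes from 2 through 9 to 12 distal peaks, *Pecam1* stays at 9 to 11, and *Itgal* and *Itgb2* have the most among the partners.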

How the data were processed

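H3K27ac ChIP-seq peak lists of TA muscle at 2, 10, and 20 months (1 library per age) were analysed. Per the submitters' processing notes, reads were aligned to mm9 with Bowtie2 and peaks called with MACS2 2.1.0. For the Bowtie2 version and any control library: not given in the sources used here. The deposited columns are the authors' score, fold (ratio of summit pileup to background, each plus 1), −log10 p-value, −log10 q-value, and summit position. The score was not used. Uniquely mapped reads come from the study's supplementary table.

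Summit reads and background were solved from the fold and −log10 p (tolerance 0.001; tested on simulated data, 100% of 5000 peaks per library returned), which left out 1 peak each at 10 and 20 months. The genome mean is the lowest background of a list. Regions join peaks sharing at least 1 bp, and a region's level is its highest summit. Ratios of reads have exact conditional binomial intervals, shares Clopper-Pearson intervals. Scripts ran under Python 3.11.15 with scipy 1.17.1, pandas 2.3.3, and numpy 2.4.6, and plots were drawn with matplotlib 3.10.9. The members, partner list, and measures were chosen with earlier results of these data known, and the height needed for a call was added after the peaks had been seen. The text names the 5 members, 9 partners, and RefSeq neighbours (GRCm38.p6, by name only), and 1 gene of the partner list is not reported here. Alternatives changed limits, thresholds, merging, and scale.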

Additional observations from a re-analysis of the deposited data

How the results depend on the processing

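With 1 library per age, no alternative can be judged against replicates, and intervals cover counting error only. No paired analysis was possible because each age has 1 library with no replicate number. The 14, 20, and 27 distal peaks at 2, 10, and 20 months became 5, 8, and 9 with an outer limit of 50 kb and 7, 12, and 14 when only the best 50% of a list by q was kept. They were 9, 15, and 19 with peaks within 1 kb merged, 8, 17, and 21 where summits had to reach 10 times the mean, and 6, 18, and 19 where they had to reach 1 RPM. With each list cut to 17884 peaks by q, 14, 12, and 12 remained in number, so the gain was absent at equal length, although q rests on backgrounds of different kinds. There *Icam1* had 2, 6, and 6, and *Pecam1* 11, 5, and 5. Of the 3 genes with a distal peak at 2 months, 1 was left at 1 RPM. The promoter peak at 2 months (1 gene) was lost, giving 0, by the stricter q, at 10 times the mean, and at 1 RPM. At 20 months the 2 genes became 0 by either q rule and 1 at 10 times the mean or 1 RPM. The median ratio of 2.03 for 10 over 2 months was 3.04 in RPM, 1.60 with peaks within 1 kb joined, and 1.51 with summit reads summed, and that of 2.19 for 20 over 2 months was 2.64, 1.64, and 1.63. The 20 over 10 month ratio of 1.08 reversed to 0.863 in RPM. For ratios, the RPM scale differs from the main one by the length each read covers, which RPM leaves out. The causes of the other shifts were not tested. The other 58 values moved by no more than 1.5 times or stayed within the counting interval.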
